A study of Rattus norvegicus with 10 samples.

Results

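Toll-like receptors sense microbial molecules and products of damaged cells, and the inflammasome is the protein assembly that turns such signals into mature interleukins. The genes described here are 10 members of that route, which were chosen by name: the receptors Tlr2, Tlr3, Tlr4 and Tlr7, the co-receptor Cd14, the adaptor Myd88, the inflammasome sensor Nlrp3, its adaptor Pycard, the protease Casp1 and the cytokine Il18. All 10 were found among the 14166 genes of the bulk RNA-seq table and among the 25399 genes of the nuclei matrices. In bulk dentate gyrus 3 weeks after TBI, all 10 had a higher mean level than in sham, by 0.52 to 1.30 on the log2 scale, but none passed the adjusted threshold of the main test. In single nuclei, 7 of the 10 had their highest level in microglia-like nuclei, for which the share over all genes was not computed. In those nuclei all 7 had a lower fitted level in TBI than in control rats, none past the test. That direction turned for 5 of them without the naïve rat.

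All samples came from the ipsilateral hippocampal dentate gyrus of young adult male Sprague-Dawley rats, 1 rat per library. TBI rats had a craniectomy followed days later by a lateral fluid percussion injury, in which a pulse of fluid strikes the intact dura; sham rats had the same surgery without the pulse, and the naïve rat had no surgery. Bulk RNA-seq of polyA RNA covered 3 sham and 3 TBI rats, with 24730290 to 43912297 gene counts per library, and single-nucleus RNA-seq (snRNA-seq) covered 2 TBI rats, 1 sham rat and 1 naïve rat, the last 2 of which form the control group of the study. Of 55863 nuclei 55124 passed the filters, with a median of 1647 to 2652 UMIs per nucleus in the 4 rats, and any pair of rats shared 45 to 60 cell barcodes, at most 0.452% of the smaller library.

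As background, Tlr2 and Tlr4 sit at the cell surface and respond to lipid-bearing ligands and to endogenous danger signals, with Cd14 handing lipopolysaccharide to Tlr4. Tlr3 and Tlr7 sit in endosomes and read double-stranded and single-stranded RNA. Most Toll-like receptors signal through the adaptor MyD88 to NF-κB, which raises the transcription of Nlrp3 and of cytokine precursors, and NLRP3 then recruits the adaptor ASC (encoded by Pycard) and caspase-1 (Casp1), which cleaves pro-IL-18 and pro-IL-1β. In brain these genes are known mainly from microglia, the resident macrophages.

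The promoter sequences of the members were searched as a description. The letters of 3 motifs were looked for on both strands of the RefSeq window (GRCr8) of each gene. The window runs from 250 bases before to 50 bases after 1 annotated transcript start. That start is the outermost of the gene for 5 members, Myd88 among them, and lies inside the gene for the other 5, among them Cd14 and, by 126492 bases, Casp1, so that these windows are not the only promoters the genes can have. The interferon response element GAAANNGAA was in the windows of 3 of the 10 members, Casp1, Myd88 and Cd14, and in 9.71% of 33469 windows of all genes. The string GGANTTTCC, searched for the κB site, was in 0 of the 10 and in 1.28% of all windows. Other spellings of that site were not searched, and the window of Tlr2 holds the letters GGGAATTCCC. The 0 matches therefore do not show that κB sites are absent. The string GAGGAAGT, searched for the myeloid factor PU.1, was in 0 of the 10 and in 2.42% of all windows. The shorter string GAGGAA was present in several windows, among them those of Cd14, Casp1, Nlrp3 and Tlr7 on the strand of the gene. On the other strand it was present in those of Tlr3 and Tlr4. It was not counted over all genes. The absence of the longer string therefore does not show that sites of PU.1 are absent. The windows that hold the first motif are shown 5′ to 3′ on the strand of the gene, with the motif in capitals.
Casp1, chr8:10872580-10872879, plus strand: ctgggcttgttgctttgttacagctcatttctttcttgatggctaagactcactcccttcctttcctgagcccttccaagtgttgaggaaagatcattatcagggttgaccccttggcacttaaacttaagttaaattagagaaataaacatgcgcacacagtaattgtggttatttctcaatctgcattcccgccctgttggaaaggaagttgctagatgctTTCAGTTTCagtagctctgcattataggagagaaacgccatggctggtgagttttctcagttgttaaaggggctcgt
Myd88, chr8:127956181-127956480, minus strand: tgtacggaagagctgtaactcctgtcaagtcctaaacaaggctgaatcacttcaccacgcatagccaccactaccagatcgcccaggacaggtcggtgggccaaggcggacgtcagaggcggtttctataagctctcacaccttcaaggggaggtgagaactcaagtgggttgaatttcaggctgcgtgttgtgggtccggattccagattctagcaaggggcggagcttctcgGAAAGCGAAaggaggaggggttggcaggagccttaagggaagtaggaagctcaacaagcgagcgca
Cd14, chr18:28611109-28611408, minus strand: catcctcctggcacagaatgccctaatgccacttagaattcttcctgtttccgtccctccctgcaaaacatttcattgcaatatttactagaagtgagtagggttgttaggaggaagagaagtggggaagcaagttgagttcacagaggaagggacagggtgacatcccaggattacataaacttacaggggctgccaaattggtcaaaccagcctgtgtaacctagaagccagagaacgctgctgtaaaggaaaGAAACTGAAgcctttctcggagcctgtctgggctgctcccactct
Relative to the transcript start of the window, the match began 27 bases before it for Casp1, on the other strand, 16 bases before it for Myd88 and 5 bases after it for Cd14. A match describes the letters of the window and was not tested as a binding site.

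The receptor genes were each higher in every TBI library than in every sham library. Tlr7, the endosomal sensor of single-stranded RNA, was at 5.90, 5.90 and 4.37 CPM (gene counts scaled to the size of the library) in sham replicates 1 to 3 and at 8.90, 20.03 and 11.5 CPM in TBI replicates 1 to 3. The groups did not overlap, and TBI replicate 2 stood well above the other TBI libraries. The Log2FC of Tlr7 was 1.29 ± 0.31 (SE, n = 3 per group; edgeR quasi-likelihood test, adjusted p = 0.235). Tlr4, the receptor for lipopolysaccharide, was at 0.686, 2.16 and 1.43 CPM in the sham libraries and at 3.19, 4.21 and 3.49 CPM in the TBI libraries. Its lowest TBI library lay above its highest sham library, and its Log2FC of 1.30 was the largest among the members, with an SE of 0.42 (edgeR, adjusted p = 0.357). The gene rested on only 18 to 129 counts per library.

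Tlr2, the surface receptor for bacterial lipoproteins, was at 4.84, 6.09 and 3.35 CPM in sham and at 9.99, 10.2 and 6.55 CPM in TBI. The groups did not overlap, but TBI replicate 3 lay only a little above sham replicate 2. Tlr3, which reads double-stranded RNA and signals without MyD88, was at 3.96, 6.50 and 4.05 CPM in sham and at 7.73, 11.8 and 9.65 CPM in TBI. Here too the groups did not overlap. The Log2FC was 0.87 ± 0.28 for Tlr2 (SE, n = 3 per group; edgeR, adjusted p = 0.355) and 0.97 ± 0.27 for Tlr3 (adjusted p = 0.277).

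The co-receptor and the adaptor differed less. Cd14 was at 1.12, 2.55 and 1.87 CPM in sham and at 3.07, 3.14 and 3.87 CPM in TBI, with no overlap and a Log2FC of 0.82 ± 0.35 (edgeR, adjusted p = 0.528). Myd88, the adaptor that most receptors of the family share, was at 5.79, 7.08 and 6.65 CPM in sham and at 8.77, 12.3 and 10.1 CPM in TBI. Its groups were separate as well, and its Log2FC of 0.64 ± 0.19 (adjusted p = 0.311) was the smallest among the genes without overlap.

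Among the inflammasome genes, Pycard and Casp1 separated the groups, and Nlrp3 and Il18 did not. Pycard, which encodes the adaptor that joins sensor and protease, was at 2.06, 2.49 and 2.07 CPM in sham and at 3.96, 7.32 and 4.99 CPM in TBI, a Log2FC of 1.26 ± 0.29 (SE, n = 3 per group; edgeR, adjusted p = 0.208). Its sham libraries lay close together, and every TBI library was above them. Casp1, the protease of the complex, was at 2.70, 2.24 and 1.94 CPM in sham and at 4.33, 5.95 and 3.95 CPM in TBI, a Log2FC of 1.02 ± 0.27 (adjusted p = 0.256). The sensor Nlrp3 was at 2.59, 4.22 and 2.80 CPM in sham and at 3.96, 9.90 and 4.59 CPM in TBI. TBI replicate 1 lay below sham replicate 2, so the groups overlapped, and the Log2FC was 0.91 ± 0.40 (adjusted p = 0.543), or 0.35 without TBI replicate 2. Il18, which encodes the cytokine that caspase-1 matures, was at 3.05, 5.17 and 2.89 CPM in sham and at 4.29, 6.59 and 5.38 CPM in TBI. It also overlapped and had the smallest Log2FC of the members, 0.52 ± 0.30 (adjusted p = 0.673), or 0.32 without TBI replicate 2.

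**Figure D1:**
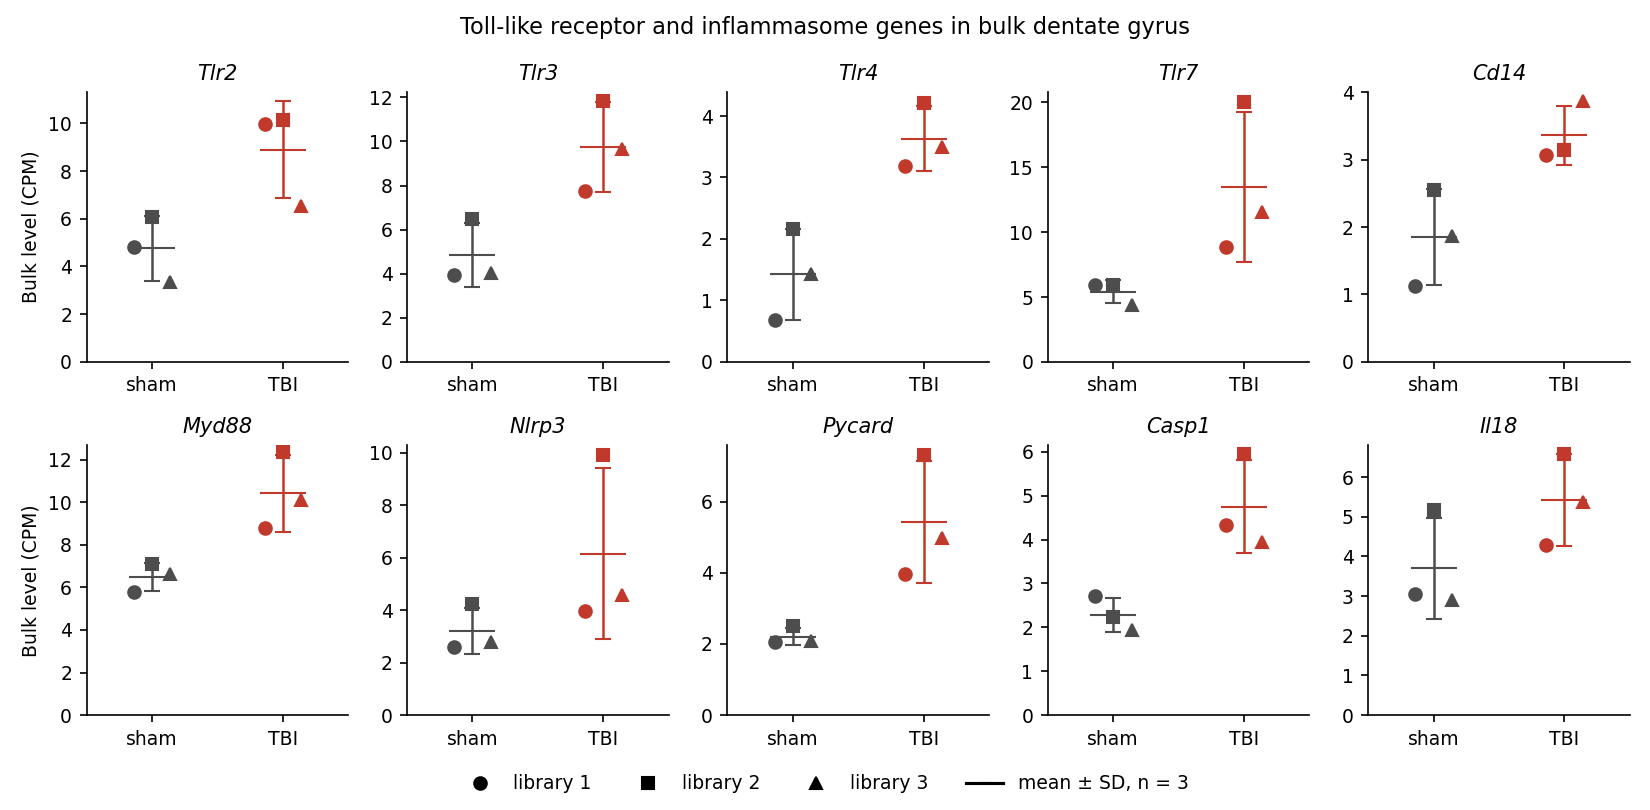
Level of each of the 10 genes in CPM (vertical axes, from 0) in the 3 sham libraries (grey) and the 3 TBI libraries (red) of the bulk data; symbols mark the replicate number and the bars the mean ± SD. The red symbols lie above all grey ones in 8 of the 10 panels, with overlap for Nlrp3 and Il18, and TBI replicate 2 is the highest of the 6 libraries in 9 panels.

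All 10 members had a Log2FC above 0, as did 49.4% of all genes tested. Of the 10, 8 members had every TBI library above every sham library, against 11.7% of all genes, and 0 had every one below, against 3.04%. By edgeR's quasi-likelihood test 7 of the 10 had an unadjusted p under 0.05 and were higher in TBI, against 8.20% of all genes (9.60% in either direction). By the same test 0 of the 10 passed an FDR of 0.05, as did 0 of all 14166 genes (0%), where the lowest adjusted p was 0.196. DESeq2 called 2 members at an FDR of 0.05, Tlr7 (adjusted p = 0.0146) and Pycard (adjusted p = 0.0197), against 2.39% of all genes called as higher. When p-values were adjusted only over genes with p under 0.05, DESeq2 passed 8 members, against 8.10% of all genes passed as higher. Every gene with p under 0.05 passes that adjustment by construction, so these are counts at an unadjusted p under 0.05. The test of limma on the deposited log2 values called 0 (0% of all genes). The median Log2FC was 0.94 over the members and -0.0029 over all genes. Without TBI replicate 2 the median of the members was 0.79 and 4 of the 10 had an unadjusted p under 0.05. The range of counts over all genes in the fits without 1 library is given with the dependence on the processing.

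The members varied together from library to library. Over the 6 libraries, which include the difference between the groups, Pearson's r of the 45 pairs of members was between 0.594 and 0.988, with a median of 0.852. TBI replicate 2 was highest for 9 of the 10 members and TBI replicate 3 for the other, Cd14. Sham replicate 1 was lowest for 6 members and sham replicate 3 for 4. The genes of the table most like the members, by Pearson's r over these 6 libraries with the mean of the standardized log2 CPM of the 10, were Wdfy4 (r = 0.999), Tnfrsf19 (r = 0.997), Ptafr (r = 0.995), S100a4 (r = 0.995) and a gene known only by its Entrez number 100909505 (r = 0.995).

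The dates of injury listed for the bulk rats were split by month into 2 periods. Months before July, called spring here, held sham replicates 1 and 2 and TBI replicate 1. The later months, called autumn here, held sham replicate 3 and TBI replicates 2 and 3. Each of the 10 members was higher in TBI in both periods, by 0.11 (Il18) to 1.37 (Tlr4) in log2 CPM in spring and by 0.75 (Myd88) to 1.80 (Tlr7) in autumn. With period as a covariate the edgeR Log2FC was 1.19 for Tlr7, 1.15 for Pycard and 0.76 for Nlrp3.

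Markers of cell types were set beside the members, since in bulk tissue fewer cells of a type and less RNA per cell cannot be told apart. Of 12 microglial markers 11 were in the table, and all 11 were higher in TBI, 10 of them without overlap, against 11.7% of all genes. Their median Log2FC was 1.001, or 0.61 without TBI replicate 2. Their summed level was 327 to 341 CPM in the sham libraries and 525 to 911 CPM in the TBI libraries, with the highest value in TBI replicate 2, the library that was also highest for the members. Astrocyte markers had a median Log2FC of 0.37 (7 of 8 higher), markers of border macrophages or monocytes, other cells that carry these receptors, 1.16 (4 of 4 higher), and fibroblast markers 2.46 (5 of 5 higher). Endothelial markers had a median of 0.46 and pericyte markers of 0.40 (6 of 6 higher in each). Without TBI replicate 3 the medians were 0.67 for border macrophages or monocytes, 0.86 for fibroblasts, 0.090 for endothelial cells and 0.21 for pericytes. Oligodendrocyte markers had a median of -0.72 (8 of 8 lower), which became -0.062 without sham replicate 2. No marker of these lists that was in the table was at 0 in every library. The part of these cell types in the differences of the members was not tested.

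Relative to the microglial markers of the same library 8 of the 10 members overlapped between the groups. When the mean log2 CPM of the 11 markers was subtracted from each member, Pycard alone kept every TBI library above every sham library (difference 0.26, two-sided exact permutation over libraries, p = 0.1, below which groups of 3 cannot go; 0.657% of all genes did so). Myd88 went the other way, with every TBI library below every sham library (difference -0.32, exact permutation test, two-sided, p = 0.1), as did 76.9% of all genes. The other 8 overlapped, from -0.41 for Il18 to 0.49 for Tlr4. Summed over the 10 members, the level was 9.63, 13.02 and 9.61 CPM per 100 CPM of microglial markers in the sham libraries and 11.1, 10.0 and 11.7 in the TBI libraries, so that on this scale the groups overlapped.

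**Figure D2:**
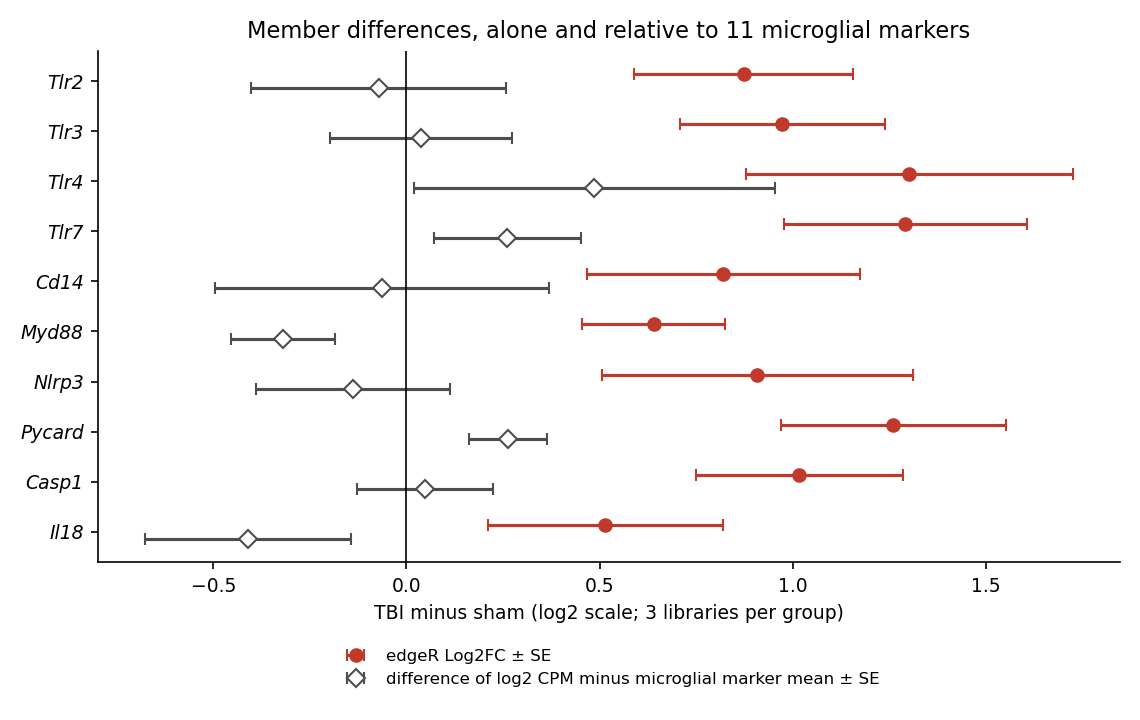
Difference between TBI and sham on the log2 scale (horizontal axis) for each member, as the edgeR Log2FC ± SE (red circles) and after subtraction of the mean log2 CPM of 11 microglial markers in the same library (open diamonds, ± SE of the difference of means of 3 libraries per group). The red circles lie between 0.52 and 1.30, and the diamonds lie on both sides of 0, between -0.41 and 0.49.

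The wider pathways were followed in 92 other genes of Toll-like receptor and inflammasome signaling, of which 72 were in the bulk table. Of these 54 were higher and 18 lower in TBI, with a median Log2FC of 0.43. At an unadjusted p under 0.05 27 were higher, against 8.20% of all genes, and 1 was lower. Every TBI library lay above every sham library for 28, against 11.7% of all genes, and below for 0. DESeq2 called 7 as higher at an FDR of 0.05, against 2.39% of all genes. The members' median of 0.94 was above that of the adaptors and kinases between receptor and nucleus (0.11, 16 genes) and of the accessory and trafficking genes (0.19, 6 genes), near that of the NF-κB target genes (0.97, 8 genes) and below that of the other Toll-like receptors (2.10, 4 genes). These medians are descriptions and were not tested against each other. That of the other Toll-like receptors rests on genes at low levels. Tlr8, Tlr9 and Tlr12 averaged 0.756, 1.82 and 0.543 CPM in TBI. Tlr6 averaged 5.35 CPM in sham and 7.58 in TBI, with a Log2FC of 0.47 ± 0.22 and overlapping groups.

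Among the other Toll-like receptors 4 of 9 were in the table. Tlr9, the sensor of unmethylated DNA, was at 0.343 to 0.917 CPM in sham and at 1.54 to 2.35 CPM in TBI (Log2FC 1.72 ± 0.51). Tlr12 was at 0.0228 to 0.147 CPM in sham and at 0.392 to 0.712 CPM in TBI, on few counts (Log2FC 2.73 ± 0.79). Unc93b1, the chaperone that brings Tlr3, Tlr7 and Tlr9 to endosomes, was at 8.46, 10.9 and 9.56 CPM in sham and at 20.7, 38.1 and 22.4 CPM in TBI. It separated the groups widely, with a Log2FC of 1.45 ± 0.26 (edgeR, adjusted p = 0.196; DESeq2, adjusted p = 0.00015). Ly86, which encodes the partner of a receptor that tempers Tlr4 signaling, had a Log2FC of 1.05 ± 0.29, and Ikbke, a kinase upstream of interferon regulatory factors, had 0.67 ± 0.19.

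Downstream of the receptors, the transcription factors Irf8 and Irf7 had a Log2FC of 1.83 ± 0.41 and 0.97 ± 0.29. Of the NF-κB targets, the adhesion molecules Icam1 and Vcam1 had 1.46 ± 0.27 and 0.61 ± 0.14, and the chemokine Cxcl10 had 2.63 ± 0.64 from 0.0762 to 0.257 CPM in sham. DESeq2 called Irf8, Icam1, Vcam1 and Cxcl10 at an FDR of 0.05, and edgeR called none of these genes. Ly96, which encodes the Tlr4 partner MD-2, was not analysed here.

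Of the list of inflammasome effectors and IL-1 family genes 10 were in the table, 6 higher and 4 lower in TBI. Of these, 5 had every TBI library above every sham library, against 11.7% of all genes. The genes named here, apart from Gsdmd, Nek7 and Il1b, were picked for a small p and no overlap, so their separation is a description. Casp4, the non-canonical inflammatory caspase, was at 2.51, 2.93 and 2.28 CPM in sham and at 7.32, 11.7 and 6.12 CPM in TBI, a Log2FC of 1.67 ± 0.29 (edgeR, adjusted p = 0.196; DESeq2, adjusted p = 0.000314). It had the smallest edgeR p of the 72 genes. Casp8, which can cleave the same substrates, had a Log2FC of 1.36 ± 0.34, Gsdmd, which encodes the pore-forming gasdermin D, 0.88 ± 0.23, Ninj1, whose product ruptures the membrane of dying cells, 0.61 ± 0.18, and the sensor Nlrp1a 0.80 ± 0.25, each without overlap between the groups. Nek7, a kinase that licenses NLRP3, was lower in TBI, with a Log2FC of -0.53 ± 0.22 (adjusted p = 0.512) and overlapping groups. Il1b, the other main cytokine of the inflammasome, was at 0.267, 9.65 and 0.0228 CPM in sham and at 0.687, 0.947 and 0.677 CPM in TBI. Sham replicate 2 alone set its mean, and the Log2FC of -2.12 ± 1.53 (adjusted p = 0.734) was within the spread of the libraries.

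**Figure D3:**
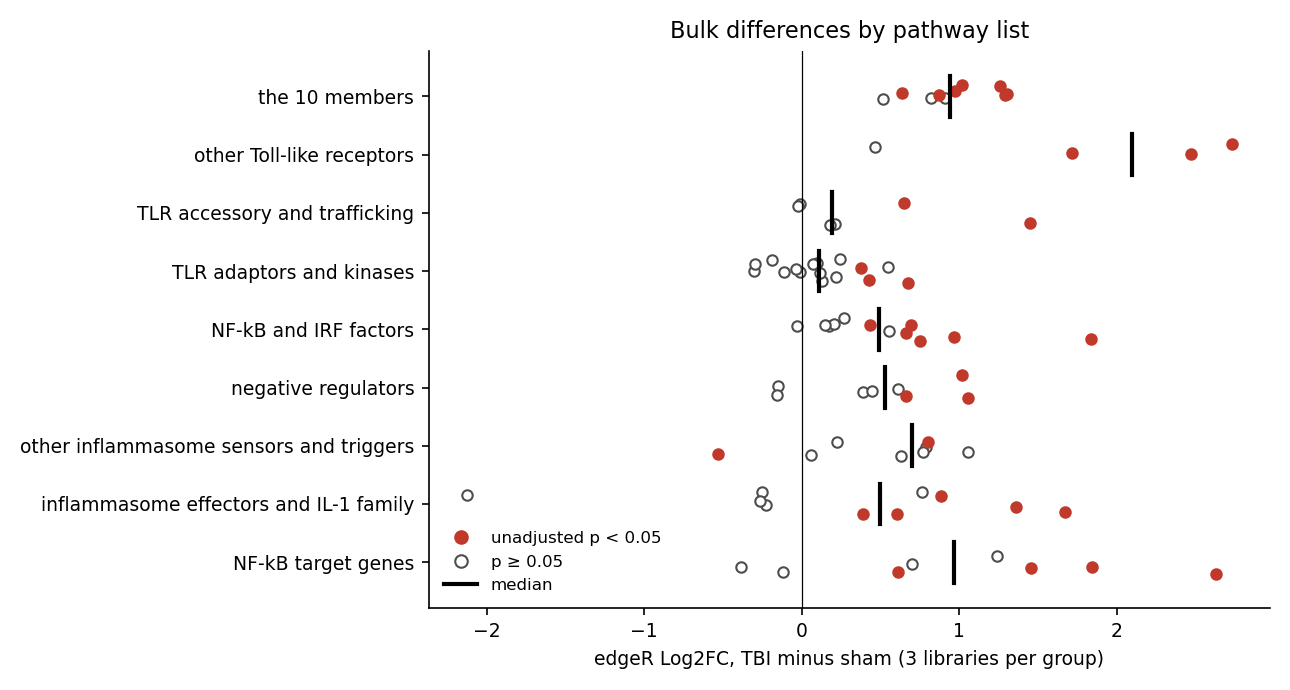
Bulk Log2FC of TBI against sham (horizontal axis, edgeR, 3 libraries per group) for the 10 members and for 72 genes of 8 other pathway lists (rows); each circle is a gene, filled where the unadjusted p was under 0.05, and the black bar is the median. The members lie between 0.52 and 1.30, all right of 0, and the list of adaptors and kinases lies closest to 0, with a median of 0.11.

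The snRNA-seq data were used to ask which cells carry these transcripts. Clustering without the member and pathway genes gave 23 clusters, of which 2 were microglia-like (3143 nuclei), 1 astrocyte-like (5049), 3 oligodendrocyte-like (3322), 2 oligodendrocyte precursor-like (2771), 1 endothelial-like (434), 3 GABAergic neuron-like (3704) and 7 glutamatergic neuron-like (33389), and 4 stayed unnamed (3312). The classes were rebuilt from markers, so their sizes can differ from those of the study, and doublets were kept. The second microglia-like cluster (635 nuclei) had 463.5 CPM (UMIs of a gene relative to all UMIs of its nuclei) of the neuronal transporter Slc17a7, within the 443.4 to 647.2 of the glutamatergic clusters, against 246.5 in the first (2508 nuclei).

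Microglia-like nuclei had the highest level of Il18, Nlrp3, Tlr7, Tlr3, Tlr4, Tlr2 and Pycard among the named classes. For each of these 7 genes the lowest of the 4 rats in microglia-like nuclei lay above the highest rat in every other named class. The same shares over all genes were not computed, so these counts are a description. With nuclei classed singly by their detected markers (a marker gate), such a separation held for Nlrp3 alone. There the lowest rat for Pycard in microglia was at 14.4 CPM, against 15.9 for the highest in GABAergic nuclei. The highest rat was further above it in classes with few UMIs of Pycard. It was at 61.1 in pericytes (3 UMIs), 73.1 in red blood cells (1 UMI) and 258.5 in border macrophages or monocytes (1 UMI). For Tlr2 and Tlr3 the lowest rat in microglia was at 3.95 and 11.83, against 12.15 and 24.29 in endothelial nuclei. The highest rat in pericytes was at 29.75 for Tlr3 (2 UMIs) and for Tlr4 (1 UMI), whose lowest rat in microglia was also at 11.83. Tlr7 and Il18 were exceeded only in 9 border macrophage or monocyte nuclei. Tlr7 was at 98.7 ± 29.5 CPM of microglia-like nuclei (SD, n = 4 rats), against 4.25 ± 1.28 in astrocyte-like and 0.809 ± 0.486 in glutamatergic nuclei, and 61.9% of its 522 UMIs were in microglia-like nuclei. Nlrp3 was at 103.6 ± 40.7 in microglia-like nuclei and at 5.45 ± 1.18 in the next class, the astrocyte-like nuclei, with 54.2% of its 616 UMIs in the former. Tlr2 was at 24.8 ± 15.2 in microglia-like nuclei and at 2.68 ± 3.36 in the next class, the endothelial-like nuclei, with 61.5% of its 130 UMIs in the former. By cluster, these receptors and the sensor were thus mostly read from 5.70% of the nuclei. With the marker gate microglia held 46.7% of the UMIs of Tlr7, 40.9% of Nlrp3 and 44.6% of Tlr2. Nuclei that the gate left unnamed held 24.9%, 25.65% and 24.6% in the same order.

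Tlr4 and Tlr3 were also read in a further class. Tlr4 was at 32.1 ± 21.6 CPM in microglia-like and at 3.48 ± 1.75 in astrocyte-like nuclei, which held 47.4% and 28.2% of its 209 UMIs. Tlr3 was at 41.1 ± 17.0 in microglia-like, 17.1 ± 2.60 in endothelial-like and 4.37 ± 1.55 in astrocyte-like nuclei. Its lowest microglia-like value, 23.5 in the sham rat (95% exact Poisson interval 13.2 to 38.8, counting error only), and its highest endothelial-like value, 19.6 in the same rat (8.46 to 38.6), were not resolved by counting. Without nuclei holding 2 or more markers of another class the endothelial-like level of Tlr3 was 5.96 ± 11.9 CPM, on 1 UMI.

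Casp1 and Myd88 had their highest mean in endothelial-like nuclei, on few UMIs. Endothelial nuclei were also above microglia with the marker gate. Leaving out nuclei with markers of another class left too few endothelial-like UMIs to order the classes. Casp1 was at 25.9 ± 9.21 CPM there, on 29 UMIs in 4 rats, and at 12.2 ± 4.43 in microglia-like nuclei, on 39 UMIs. The ranges over rats, 15.02 to 37.4 and 7.597 to 18.2, overlapped, and every other named class was at 0.567 or less. Myd88 was at 10.1 ± 8.33 in endothelial-like, 3.72 ± 2.57 in microglia-like and 2.27 ± 0.490 in astrocyte-like nuclei, with overlapping ranges and 117 UMIs in all. Without nuclei holding 2 or more markers of another class, Casp1 was at 14.7 CPM in microglia-like and 7.85 in endothelial-like nuclei (1 UMI), and Myd88 at 4.35 and 0. Cd14 had 23 UMIs in all nuclei, 2 of them in microglia-like and 10 in astrocyte-like nuclei, and its levels could not be ordered at this depth.

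Il18 and Pycard were spread over more classes. Il18 was at 123.2 ± 29.2 CPM in microglia-like, 22.6 ± 4.67 in oligodendrocyte-like and 15.9 ± 2.97 in GABAergic nuclei. Glutamatergic nuclei, the most numerous class, held 32.0% of its 1316 UMIs at a level of only 5.04 ± 1.59. Pycard was at 24.3 ± 14.2 in microglia-like, 9.53 ± 4.34 in GABAergic and 8.20 ± 4.29 in glutamatergic nuclei. Of its 1098 UMIs 67.8% were in glutamatergic and 6.65% in microglia-like nuclei. Among 70 of the other pathway genes with at least 20 UMIs, the highest named class was microglia-like for 29, endothelial-like for 22 and astrocyte-like for 8. The same shares over all genes were not computed, and endothelial-like levels rest on only 434 nuclei, so these counts are a description.

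The shares of nuclei with a UMI gave the same contrast when depth was made equal. With each nucleus thinned to 500 UMIs, Tlr7 was detected in 6.28% of microglia-like nuclei (mean of 4 rats, 10.3% without thinning). It was detected in 0.0435% of glutamatergic nuclei (0.192% without thinning). The median depth was 632 to 817 UMIs in the former and 1811 to 2784 in the latter. Nlrp3 was detected in 6.42% and 0.0667% of thinned nuclei, and Il18 in 7.50% and 0.257%.

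**Figure D4:**
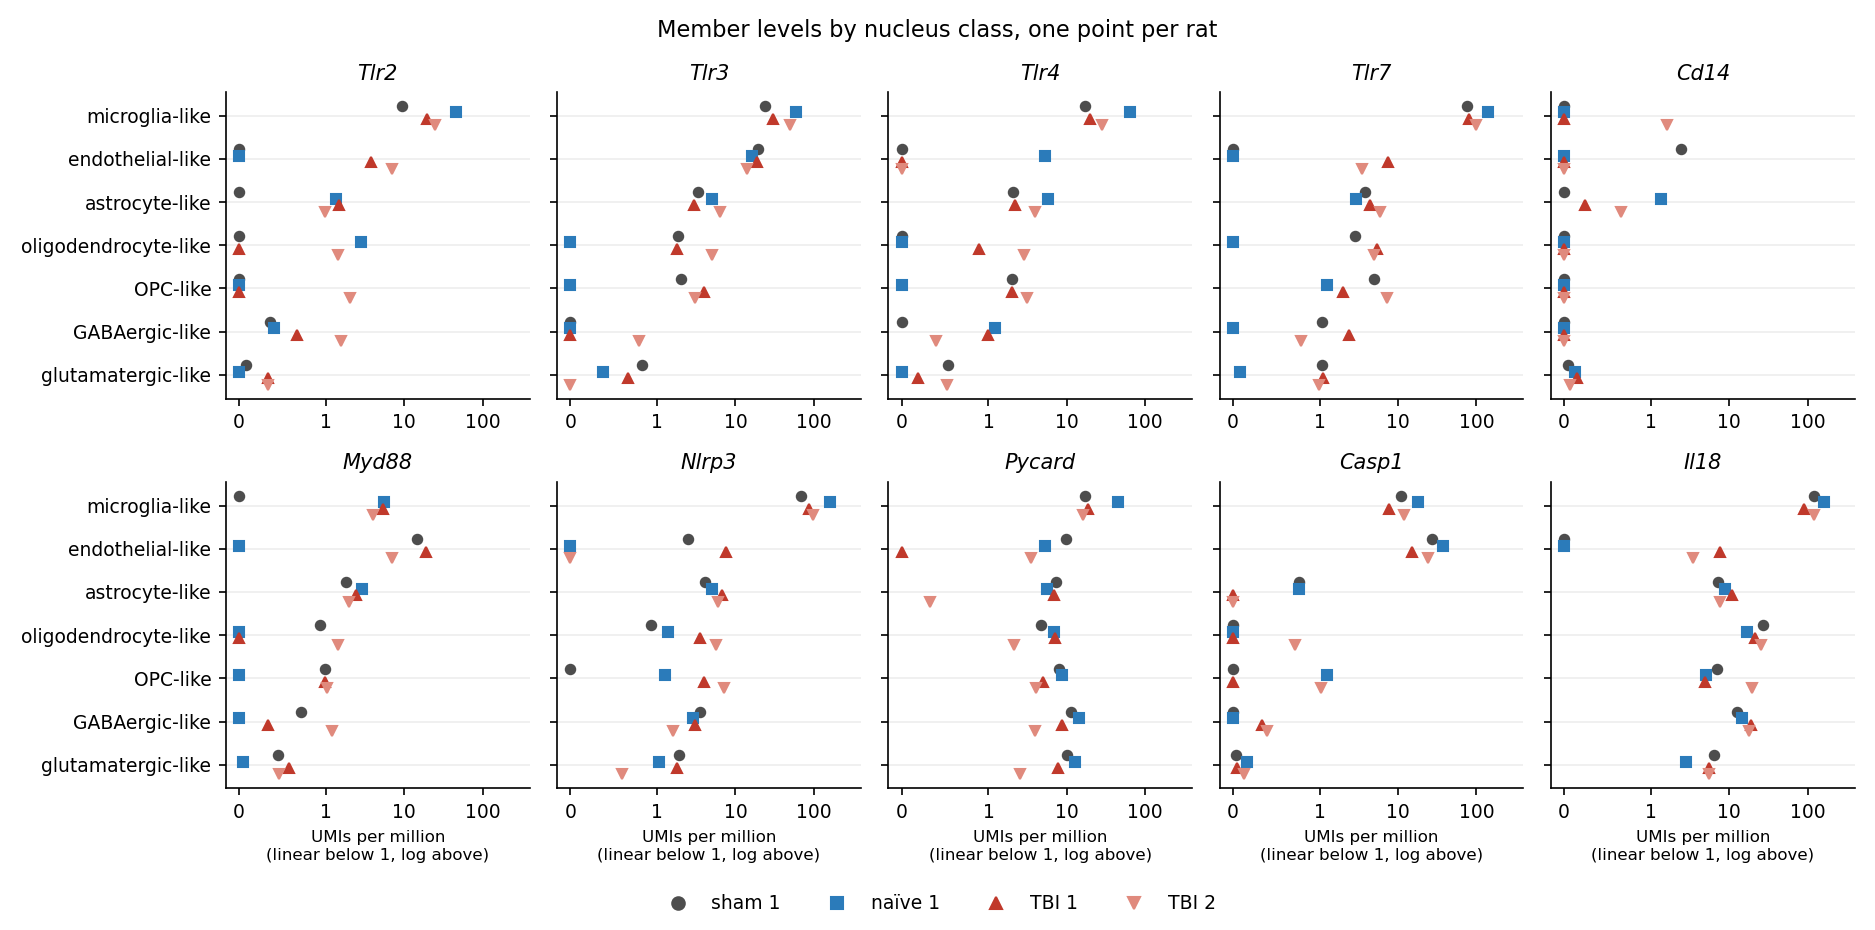
Level of each member in CPM (horizontal axes, linear below 1 and logarithmic above) in 7 named classes of nuclei (rows), with 1 point per rat (circle sham, square naïve, triangles TBI). Points for Tlr2, Tlr7 and Nlrp3 in microglia-like nuclei lie to the right of all others, from 9.41, 75.3 and 69.0 upward, and those for Casp1 are high in endothelial-like and microglia-like nuclei.

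Microglia-like nuclei made up 3.85% of 16931 nuclei in the sham rat (95% exact binomial interval 3.57 to 4.15) and 3.85% of 11285 in the naïve rat (3.50 to 4.22). In the TBI rats they made up 5.89% of 12508 (5.49 to 6.32) and 9.17% of 14400 (8.70 to 9.65). Both TBI rats were above both controls, by 3.68 percentage points on average (two-sided exact permutation over rats, p = 0.333, below which groups of 2 cannot go). The difference was 2.28 percentage points with a marker gate in place of clusters, 2.04 without TBI replicate 2 and 1.498 over nuclei with at least 1000 UMIs.

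Within microglia-like nuclei the members that could be tested had no higher fitted level in TBI. Of the 10, 7 passed the filter on low counts (all but Cd14, Myd88 and Casp1), and all 7 had a negative Log2FC of TBI against control, with a median of -0.36 (-0.0058 over all 9156 genes tested). None of the 7 had an unadjusted p under 0.05 by edgeR, where 1.12% of all genes were higher and 1.10% lower at that threshold. At an FDR of 0.05, 0 members and 0 of all genes (0%) were called by edgeR and by DESeq2, with 204 genes at an unadjusted p under 0.05 by edgeR.

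The naïve rat was the highest of the 4 for all 7 members, against 32.6% of the genes tested. Tlr4 was at 17.3 CPM in the sham rat, 63.8 in the naïve rat, and 19.5 and 27.9 in the TBI rats (Log2FC -0.77 ± 0.59; edgeR, adjusted p = 0.999). Tlr2 was at 9.41 in sham, 45.6 in naïve, and 19.5 and 24.7 in TBI. Both TBI rats lay between the control rats for these surface receptors. Nlrp3 was at 69.0 in sham, 162.2 in naïve, and 86.8 and 96.5 in TBI. Tlr7 was at 75.3 in sham, 140.3 in naïve, and 80.3 and 98.9 in TBI. The sensor and the endosomal receptor showed the same order, with the sham rat lowest.

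Without the naïve rat the direction turned for 5 of the 7. Against the sham rat alone the Log2FC was 1.18 for Tlr2, 0.74 for Tlr3, 0.42 for Tlr4, 0.36 for Nlrp3 and 0.21 for Tlr7, and it stayed negative for Pycard (-0.060) and Il18 (-0.26). None of these genes passed an FDR of 0.05 in that fit, nor did any of its 10231 genes (0%). Il18, the cytokine of the list, was at 122.4 CPM in sham, 160.3 in naïve, and 89.0 and 121.2 in TBI. Pycard was at 17.3 in sham, 45.6 in naïve, and 18.4 and 15.9 in TBI.

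The microglial markers varied with the members from rat to rat. Their summed level in microglia-like nuclei was 2971 CPM in the sham rat, 5375 in the naïve rat, and 2782 and 3497 in the TBI rats, and the summed level of the members was 345, 702, 357 and 453 in the same order. For every 100 UMIs of the 12 markers there were 11.6 member UMIs in the sham rat, 13.1 in the naïve rat, and 12.8 and 12.9 in the TBI rats. On this scale the naïve rat was close to both TBI rats. Slc17a7 was at 260.4, 373.5, 387.4 and 353.2 CPM in these nuclei in the same order, and its part in the levels was not tested.

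**Figure D5:**
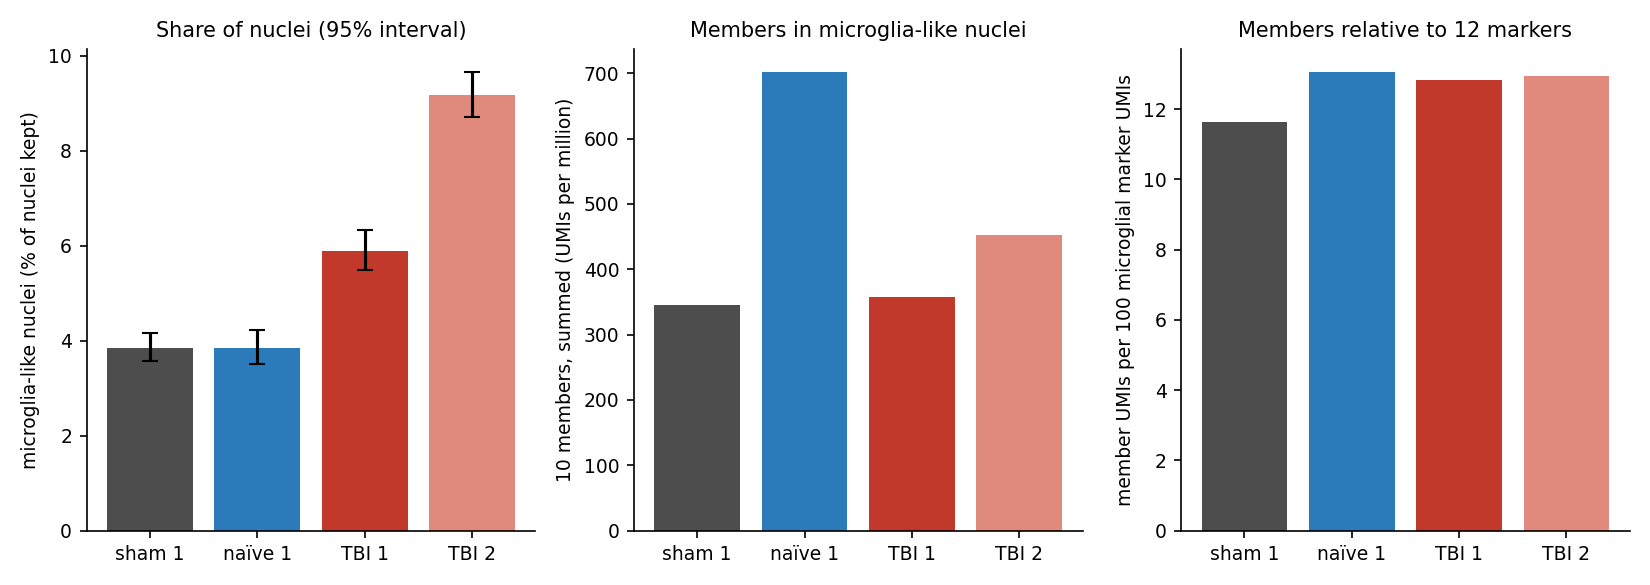
Microglia-like nuclei of the 4 rats: their share of all nuclei in percent with 95% exact binomial intervals (left), the summed level of the 10 members in CPM (middle) and the member UMIs per 100 UMIs of 12 microglial markers (right). The share is higher in both TBI rats (5.89% and 9.17%) than in the controls (3.85% each), the summed level is highest in the naïve rat (702), and the ratio lies between 11.6 and 13.1 in all 4.

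When all nuclei of a rat were summed, 5 members were higher in both TBI rats than in both controls, against 23.5% of the 16886 genes with at least 20 UMIs. These were Tlr2, Tlr7, Myd88, Nlrp3 and Il18. Tlr7 was at 2.86 CPM in sham, 2.76 in naïve, and 4.31 and 7.09 in TBI, and Nlrp3 at 3.46, 4.31, 5.17 and 6.75 in the same order. Pycard was lower in both TBI rats, at 7.94 and 3.33 against 9.61 and 11.9, as were 10.1% of those genes, which is the opposite of its bulk direction. Tlr3, Tlr4, Cd14 and Casp1 overlapped.

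The other pathway genes of microglia-like nuclei were split between both directions. Of 41 that passed the filter 20 were higher and 21 lower in TBI, with a median Log2FC of -0.0061. P2rx7, the ATP-gated channel that triggers NLRP3, was at 393.8 and 641.4 CPM in the sham and naïve rats and at 309.3 and 336.4 in TBI. Il1a, an interleukin released by dying cells, was at 25.1 and 40.1 in the controls and at 11.9 and 14.4 in TBI. Both were lower in both TBI rats, with a Log2FC of -0.71 ± 0.29 and -1.32 ± 0.47 (edgeR, adjusted p = 0.999 for each), as were 11.8% of all genes tested. Without the naïve rat the Log2FC was -0.33 for P2rx7 and -0.97 for Il1a. They were the only 2 of the 41 with an unadjusted p under 0.05 and were picked for that after their values were seen.

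In astrocyte-like nuclei 6 of the 10 members passed the filter, and none had an unadjusted p under 0.05 by edgeR, where 6.75% of 12584 genes were higher and 5.78% lower. At an FDR of 0.05 edgeR called 0% of genes and DESeq2 2.04%, with 0 members among them. The naïve rat was the highest of the 4 for 1 of the 6, against 23.6% of genes. Nlrp3 was at 4.07 and 4.98 CPM in the sham and naïve rats and at 6.81 and 5.93 in TBI, a Log2FC of 0.42 ± 0.44 (edgeR, adjusted p = 0.744). Tlr7 was at 3.81 and 2.88 in the controls and at 4.38 and 5.93 in TBI, a Log2FC of 0.55 ± 0.50 (adjusted p = 0.702). Both genes were higher in both TBI rats, as were 26.4% of the genes tested.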

How the data were processed

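Gene expression was measured by bulk RNA-seq in 3 sham and 3 TBI rats and by snRNA-seq in 2 TBI, 1 sham and 1 naïve rat. For bulk, the authors pseudo-aligned reads with kallisto and deposited log2 CPM values, from which estimated counts per gene were worked back (prior count 0.5), and 13778 of 14166 Entrez numbers were named from RefSeq (GRCr8). For nuclei, the authors deposited UMI counts from Cell Ranger (exons and introns, Rnor_6.0). Entries stored as 0 were dropped. They were 11.1% of entries in the sham rat, 15.5% in the naïve rat, and 1.6% and 27.4% in TBI replicates 1 and 2. Their origin is not known, and their part in differences between rats was not tested. Bulk counts and nuclei counts summed per rat and class were tested with edgeR 4.0.16 (quasi-likelihood, TMM, Benjamini-Hochberg over all genes tested, in R 4.3.3), with DESeq2 1.42.0 and limma 3.58.1 as alternatives, and these tests were checked on simulated counts. A single value was tested by exact permutation over rats. Nuclei with at least 500 UMIs and 300 genes, a log10 genes per UMI ratio above 0.8 and at most 5% mitochondrial and 2% ribosomal UMIs were kept, integrated in Seurat (2000 variable genes, 25 components, resolution 0.6) and named from marker lists, by a margin of 0.5 (log2) and at least 3 detected markers, a naming rule set after the clusters were seen. Remaining clusters were called glutamatergic where Slc17a7 or Slc17a6 was in at least 50% of nuclei and Gad1 and Gad2 each in under 25%. Members and lists were chosen with earlier results of these data known. Other pathway genes were named where they were among the 15 with the smallest edgeR p and no overlap in bulk, with Il1b, Ly96, Nek7 and Gsdmd named whatever their values. Intervals cover counting error only.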

Additional observations from a re-analysis of the deposited data

How the results depend on the processing

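In bulk, all 10 members were higher in TBI under every tool, filter and covariate tried and without any single library. Members called at an FDR of 0.05 numbered 0 by edgeR and 2 by DESeq2, and genes called numbered 0 and 349. The study's adjustment, made only over genes with p under 0.05, passed 8 members and 1525 genes. It passes every such gene by construction, so these are counts at an unadjusted p under 0.05 by DESeq2. Without 1 library at a time, 4 (without TBI replicate 2) to 10 members had an unadjusted p under 0.05, genes called numbered 0 to 1, genes higher at an unadjusted p under 0.05 713 to 1343, the median Log2FC of the members was 0.79 to 1.14 and that of the other pathway genes 0.30 to 0.59. The same omissions turned the medians of marker lists that rest on few counts, which ran from -0.34 to 0.10 for oligodendrocyte precursors, -2.51 to 2.69 for lymphocytes, -4.60 to 6.40 for neutrophils and -0.57 to 1.04 for ependymal cells (-0.25, -0.30 and -0.45 between). Relative to the microglial marker mean, an alternative chosen after seeing the data, 5 members turned: Tlr2 (-0.072), Cd14 (-0.063), Myd88 (-0.32), Nlrp3 (-0.14) and Il18 (-0.41).

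A replicate block in bulk called 61 genes and 0 members. Deviations of same-numbered libraries correlated at 0.35, 0.17 and -0.030, so the numbers were not taken to pair the rats. No paired analysis was possible because the groups of nuclei share fewer than 2 numbers.

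In microglia-like nuclei, genes called were 20 with no filter beyond 1 UMI and 0 to 22 without 1 rat (5 and 10 between). Without the sham and without the naïve rat the Log2FC was -1.03 and 1.18 for Tlr2, -0.56 and 0.74 for Tlr3, -1.41 and 0.42 for Tlr4, -0.65 and 0.21 for Tlr7, and -0.83 and 0.36 for Nlrp3, and that of Tlr3 was 0.24 without TBI replicate 1 and 0.27 with a marker gate. In astrocyte-like nuclei, genes called were 257 by DESeq2, 664 with no filter and 0 to 6 (3 between) without 1 rat. There, without 1 rat, the Log2FC ran from -0.60 (-0.21 next) to 0.50 for Tlr3, -0.99 to 0.50 for Tlr4, -4.23 to 0.0092 for Pycard and -0.16 (-0.0088 next) to 0.34 for Il18. The share difference was 1.498 percentage points at 1000 UMIs. Without the microglia-like cluster at neuron-like Slc17a7, also chosen after seeing the data, levels in CPM were 41.3 for Tlr2, 65.3 for Tlr3, 155.8 for Tlr7, 160.6 for Nlrp3, 18.5 for Casp1 and 187.4 for Il18, and without nuclei holding markers of another class 66.7 for Tlr3 and 163.1 for Il18. The cause was not tested for any of these changes.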

Other observations

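In astrocyte-like nuclei 5 of 51 other pathway genes had an unadjusted p under 0.05 by edgeR, 1 higher and 4 lower, against 6.75% higher and 5.78% lower over all genes tested, a share near the background, and none passed an FDR of 0.05. Panx1, which encodes a channel that releases ATP, was higher in both TBI rats, at 22.6 and 20.7 CPM in the sham and naïve rats and at 35.5 and 31.9 in TBI (Log2FC 0.58). Tlr6, the partner of Tlr2, was at 15.001 and 12.3 in the controls and at 6.81 and 9.22 in TBI (Log2FC -0.84), and P2rx7 was lower in both TBI rats here as well (Log2FC -0.48). Gsdme and Ninj1, genes of membrane rupture, had a Log2FC of -0.60 and -1.36. These 5 were named after their values were seen.

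The share of microglia-like nuclei with a UMI of any member was 26.7% in the sham rat, 57.4% in the naïve rat, and 34.9% and 34.1% in the TBI rats. The share with UMIs of 2 or more members was 3.99%, 18.2%, 7.06% and 5.99% in the same order.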
